A study of Mus musculus with 2 samples.

Results

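The genes described here are 39 cell cycle and proliferation genes, a list chosen for their known roles that holds cyclins and their kinases, replication licensing factors, mitotic regulators, enzymes of nucleotide supply and transcription factors of the cycle. Earlier results of these data were known when the list was chosen. All 39 were found by symbol among the 21911 protein-coding genes of the GENCODE vM21 annotation. DNase-seq was used: isolated nuclei are digested lightly with DNase I, an enzyme that cuts accessible DNA, and sequencing of the cut ends shows where chromatin is open. The tissue was frontal cortex of male B6CASTF1/J mice, an F1 hybrid of C57BL/6J and CAST, aged 10 days and carrying no treatment or engineered allele in the labels. There is 1 group of 2 libraries, labelled as biological replicates from separate biosamples with the same donor entry. A label note mentions 3 males per sample without saying whether tissue was pooled, so the spread between the libraries may be technical. With no second condition, the question is how far the promoters of these genes are open in this tissue, and the values are set beside those of all protein-coding genes without a test.

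Proliferating cells pass through the cycle in order: D-type cyclins with Cdk4 and Cdk6, and E-type cyclins with Cdk2, drive entry into S phase by phosphorylating the retinoblastoma family, which releases E2F factors and the replication genes they control. Genes of G2 and mitosis are switched later, by the MuvB complex with B-Myb and FoxM1 acting through CHR elements and by NF-Y acting through CCAAT boxes, while the DREAM complex keeps both sets repressed in quiescent cells. Most neurons of the postnatal cortex have left the cycle, and the cells that still divide there are mainly glia, their precursors and vascular cells.

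The main peak list, from the authors' first processing run, held 39608 peaks in replicate 1 and 45915 in replicate 2, and replicate 2 was 1.64 times as deep by the step size of the deposited densities. The density of a peak is the authors' depth-normalised cleavage signal. Its percentile, the share of that library's main peaks at or below it, is used here to compare genes within a library. Of 10 marker genes of neurons, 9 had a peak at a start in each library (not Eno2), against 3 of 7 for astrocytes, 4 of 6 for oligodendrocyte precursors, 4 of 6 for progenitors, 2 of 6 for microglia, 1 of 5 for endothelium, 1 of 6 for liver and 0 of 6 for erythroid cells. Among progenitor markers, Sox2, Pax6, Hes1 and Hes5 had one and the intermediate progenitor gene Eomes and Nes had none. Over all protein-coding genes the share was 55.1%, so several of these small lists lie near it. With the smaller peak list of the second processing run, neurons gave 10, astrocytes 5 and microglia 1, and the other counts did not change. In bulk tissue, a peak from a few cells with very open chromatin cannot be told apart from one of many cells with weakly open chromatin.

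The promoters of the cell cycle genes were open almost without exception. A gene is called open here where each library has a main peak within 1 kb of any of its annotated transcription starts. By this measure 38 of the 39 were open, and 55.1% of all protein-coding genes. The exception was Ccnd2, the cyclin D2 gene. The smaller peak list of the second processing run gave 38 again, against 57.9% of all genes, but there the missing gene was Aurkb, which had no peak in replicate 2. The looser list of the first run gave all 39, against 61.3% of all genes.

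A CpG-rich promoter is the usual form in genes used by many cell types, and it was also the usual form in these genes. RefSeq promoters of 300 bases, from 250 before the start to 50 from it, were at hand for 31 of the genes. A ratio of observed to expected CpG of 0.6 or more was found in 29 of the 31 (93.5%), and in 50.1% of all promoters. All 29 were open, against 88.1% of all genes with such a promoter. The promoter used is the one nearest the principal start, whereas open counts a peak at any start. E2f2, at a ratio of 0.804, is among the 29, but its peaks were at another start. The promoters under that ratio were Mcm3, at 0.452, and Tyms, at 0.433, and both were open too. Read against CpG-rich promoters alone, the share of open genes in the list stood far less apart than against all genes.

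How open the promoters were varied over nearly the whole upper range of the lists. The density of the strongest promoter peak ran from 1.495 through a median of 4.84 to 15.8 in replicate 1 and from 1.01 through 3.42 to 10.2 in replicate 2, over the 38 genes. The mean percentile of the libraries had a median of 87.5, against 84.9 over all open genes. It was 90 or more for 14 of the 38 (36.8%), close to the 36.1% of all such genes, and under 70 for 8 of the 38 (21.1%), against 24.3%. By percentile, then, the open promoters of the cycle genes were spread much like open promoters at large.

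**Figure D1:**
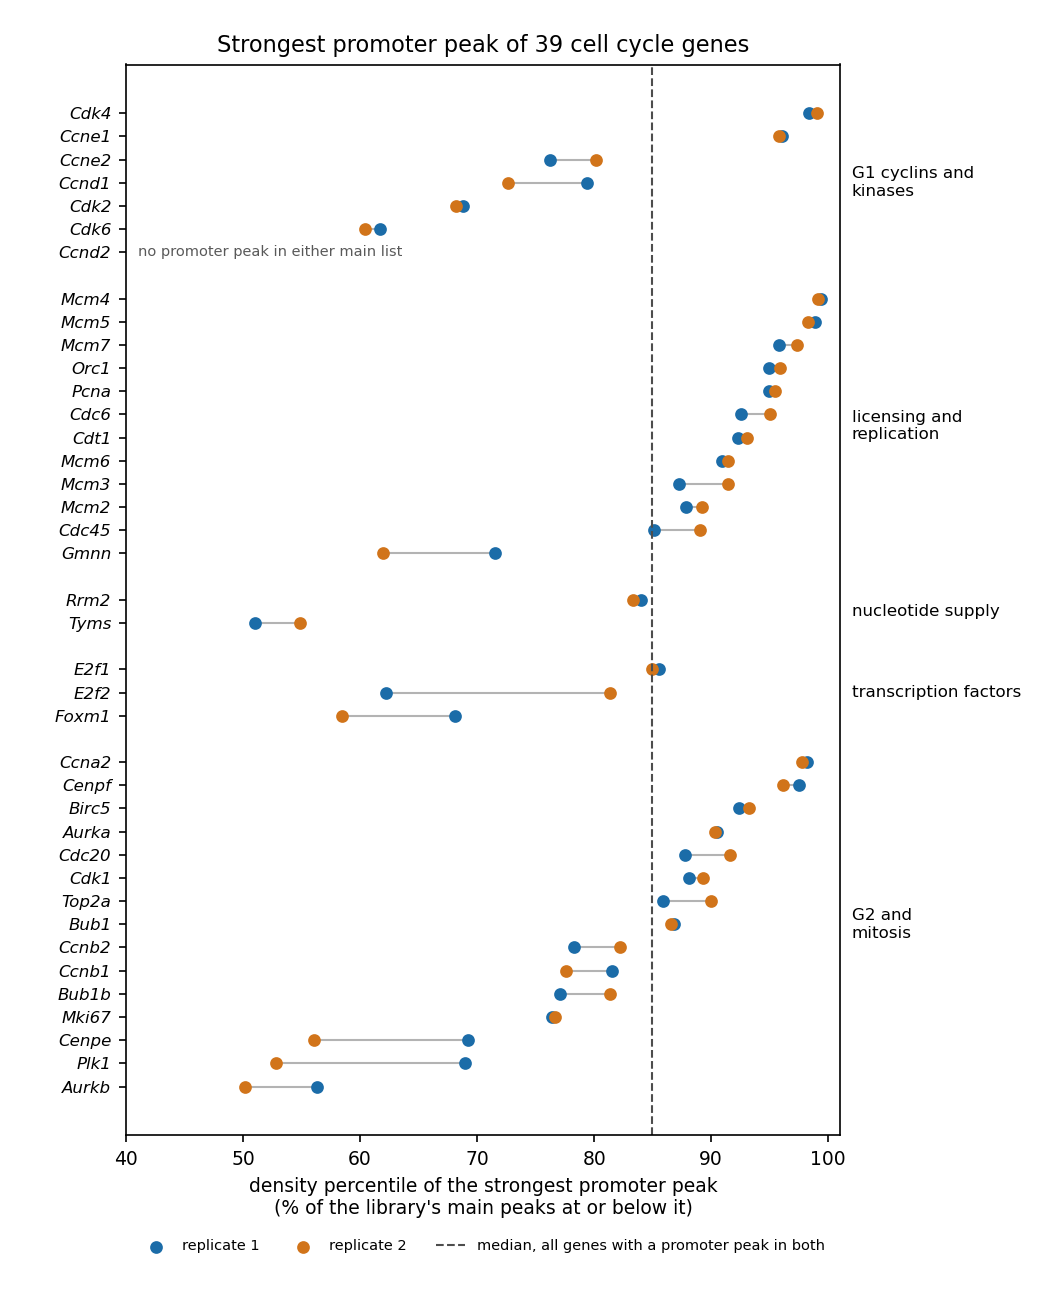
Density percentile of the strongest promoter peak of each of the 39 genes by role; each point is 1 library, the grey line joins the libraries and the dashed line is the median of 84.9 over all open genes. Of the 12 licensing and replication genes, all but Gmnn lie above the dashed line in both libraries, while the G1 genes and the mitotic genes spread on either side.

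The replicates placed most of these promoters alike. The percentile differed by 5 points or less for 31 of the 38, against 75.2% of all open genes. The ratio of densities, replicate 2 over replicate 1, had a median of 0.643 and ran from 0.466 at Plk1 to 1.19 at E2f2, beside a median of 0.660 over all genes. The 3 genes with the largest gaps were E2f2, Plk1 and Cenpe. E2f2 stood at percentile 62.2 in replicate 1 and 81.3 in replicate 2, whereas Plk1 stood at 69.0 and 52.8, and Cenpe at 69.3 and 56.1.

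Among the G1 cyclins and kinases, Cdk4 and Ccne1 had strongly open promoters and the rest were in the lower part. Cdk4, the kinase partner of D-type cyclins, reached a density of 12.9 in replicate 1 and 9.98 in replicate 2, for a mean percentile of 98.7. Ccne1, cyclin E1, reached 9.80 and 6.02, with a mean percentile of 95.9. Both kept nearly the same rank in each library. Its relative Ccne2 was weaker, at 2.94 and 2.13 (mean percentile 78.2), and so was Cdk2, the kinase of E-type cyclins, at 2.26 and 1.46 (68.5). The Cdk2 start also lies within 1 kb of the start of Pmel, so its peak cannot be given to one gene alone. The median mean percentile of the 6 open G1 genes was 77.1.

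Cdk6, the other kinase of D-type cyclins, had many weak peaks instead of a strong one. It held 8 promoter peaks in replicate 1, of which 2 overlap each other, and 6 in replicate 2, inside a single hotspot (a wide region of raised cleavage) of 3979 and 3921 bp. The strongest of them reached only 1.87 and 1.23, a mean percentile of 61.1, and lay about 640 bp downstream of the principal start (648 and 638 bp). Over its span of 199.5 kb, the gene body with 10 kb upstream, Cdk6 had 6 replicate 1 peaks that overlapped replicate 2 peaks. The 2 that overlap each other are among the 6 and meet the same replicate 2 peak. The count was the most of any of these genes, and all 6 were at its own starts. The hotspot was the widest among them, ahead of the 2235 and 1658 bp at Ccne2 and the 2043 and 2142 bp at Ccne1.

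Both cyclin D genes of the list had open DNA away from their principal starts. Ccnd1, cyclin D1, had its strongest peak 2198 and 2215 bp inside the gene, at a start of another transcript, with densities of 3.38 and 1.64. At its principal start there was a peak of 1.97 in replicate 1 and none in the main list of replicate 2. A further peak found in both libraries lay upstream, with its midpoint 1802 bp before the principal start (chr7:144941541-144941800, mm10, over no annotated exon), at 4.02 and 2.45, above the promoter peak of the gene in each library.

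Ccnd2 had no main peak within 1 kb of any of its 7 annotated starts in either library, yet cleavage was raised around them. The lowest per-base false discovery rate (FDR) of its promoter windows was 0.00207 in replicate 1 and 0.00130 in replicate 2, above the 0.001 that every main peak passes. In the looser list a peak lay upstream at chr6:127152521-127152743 in replicate 1 and at chr6:127152521-127152745 in replicate 2, with densities of 1.86 and 1.73. The smaller list of the second run had 4 and 5 promoter peaks, 1 of them over the principal start at 1.35 and 1.11. An upstream hotspot covered 1363 and 1476 bp with a highest -log10 FDR of 8.34 and 12.6. The main-list peak of this gene in both libraries was inside the gene body (chr6:127147817-127147940, overlapping an annotated exon), 3181 bp from the principal start, at 2.71 and 2.01. The values of Ccnd2 therefore fell on either side of the threshold, depending on the list.

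The licensing and replication genes were the most open of the 5 role groups. All 12 were open, and their mean percentiles had a median of 93.2, with 11 of the 12 above 87. The group includes the subunits of the MCM helicase, which is loaded on DNA before S phase and then unwinds it. Mcm4 reached 15.8 in replicate 1 and 10.2 in replicate 2 (mean percentile 99.2, the highest of the 39), and Mcm5 reached 14.2 and 8.45 (98.6). Mcm7 (9.50 and 7.24), Mcm6 (6.43 and 4.02), Mcm3 (5.09 and 4.03) and Mcm2 (5.30 and 3.43) followed, all above percentile 87 in each library. Mcm6 was above Mcm2 in each library, and the place of Mcm3 among them differed between the libraries. The starts of Mcm4, Mcm7, Cdc45 and Orc1 lie within 1 kb of the start of another protein-coding gene. Peaks there cannot be given to 1 gene alone.

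The sequences upstream of Mcm5 (chr8:75109309-75109508, plus strand) and Mcm6 (chr1:128359706-128359905, minus strand) are shown because matches to the E2F site lie inside their footprints, the short protected stretches within open DNA. They are the 200 bases before the RefSeq start on GRCm38.p6, where no exon is annotated, written 5′ to 3′ on the strand of the gene, and capitals mark bases inside a deposited footprint of each library.
Mcm5: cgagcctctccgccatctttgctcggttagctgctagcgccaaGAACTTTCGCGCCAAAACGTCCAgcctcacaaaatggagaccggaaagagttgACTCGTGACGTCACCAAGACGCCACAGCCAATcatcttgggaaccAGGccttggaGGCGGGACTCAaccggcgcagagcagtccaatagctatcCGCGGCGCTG
Mcm6: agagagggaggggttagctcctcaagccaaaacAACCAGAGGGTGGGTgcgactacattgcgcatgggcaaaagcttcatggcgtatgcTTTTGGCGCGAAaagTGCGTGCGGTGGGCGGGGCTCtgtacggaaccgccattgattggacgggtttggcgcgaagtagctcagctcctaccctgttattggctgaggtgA

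Positions are counted from the RefSeq start, with -1 the base before it. In Mcm5 the capitals from -157 to -135 hold 2 overlapping E2F matches, at -153 to -146 and -149 to -142, and the capitals from -104 to -73 end with a CCAAT box at -77 to -73. In Mcm6 the capitals from -111 to -100 hold an E2F match at -110 to -103, and an overlapping one at -106 to -99 runs 1 base past them. A further E2F match of Mcm6 at -47 to -40 and its CCAAT boxes at -57 to -53 and -14 to -10 lie outside the capitals.

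Of the remaining replication genes, the loading factors Orc1, Cdc6 and Cdt1 and the sliding clamp Pcna were all at mean percentiles over 92. Pcna reached 8.76 and 5.82 (95.2), Orc1 8.81 and 6.06 (95.4), Cdc6 7.22 and 5.53 (93.8) and Cdt1 7.11 and 4.57 (92.7). Cdc45, a partner of the MCM helicase, was at 4.50 and 3.40 (87.1). The exception was Gmnn, geminin, the inhibitor of Cdt1. It reached 2.47 and 1.27, a mean percentile of 66.7, with its strongest peak 372 and 362 bp downstream of the principal start. The peak of Cdc6 also lay away from its principal start, 430 bp upstream in each library. That peak covered the most upstream annotated start of Cdc6.

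Both genes of nucleotide supply were open, but Tyms, thymidylate synthase, was the weakest of all 38 by mean percentile. It reached 1.495 in replicate 1 and 1.10 in replicate 2 (percentiles 51.01 and 54.87), against 4.22 and 2.46 (84.0 and 83.3) for Rrm2, the small subunit of ribonucleotide reductase. Its upstream 200 bases (chr5:30073626-30073825, minus strand, GRCm38.p6) are shown, in the same notation, as the promoter with the lowest CpG ratio and the lowest mean percentile.
Tyms: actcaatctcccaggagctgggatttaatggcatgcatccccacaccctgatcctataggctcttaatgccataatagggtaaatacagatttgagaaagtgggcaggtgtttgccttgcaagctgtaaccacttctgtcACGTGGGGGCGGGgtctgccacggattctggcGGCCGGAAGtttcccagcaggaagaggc

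Of these bases, 22 are inside footprints of both libraries, in runs at -60 to -48 and -28 to -20. The first holds a GC box, GGGCGG, and the other an ETS match, CCGGAA. No CCAAT, CHR or E2F match was found in the window of Tyms.

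The transcription factors were moderately open. E2f1, an activator of S phase genes, reached 4.60 and 2.67 (mean percentile 85.2) and Foxm1, the factor of mitotic genes, 2.22 and 1.18 (63.3). The start of Foxm1 lies within 1 kb of that of Rhno1. E2f2 had no main peak at its principal start in either library. Its promoter peaks were at the start of another transcript inside the gene, 8134 and 8197 bp from the principal one, at 1.90 and 2.25. It was the gene with the largest gap between libraries.

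The 15 genes of G2 and mitosis were all open, over almost the same range as the full list (mean percentile 53.3 to 98.0, median 86.7). Ccna2, cyclin A2, led with 12.7 and 7.76 (98.0), ahead of the kinetochore gene Cenpf with 11.5 and 6.26 (96.8) and Birc5, survivin, with 7.15 and 4.66 (92.8). Cdk1, the kinase that drives mitosis, was at 5.37 and 3.46 (88.7), the topoisomerase Top2a at 4.70 and 3.60 (87.9), and the B-type cyclins Ccnb1 and Ccnb2 at 3.74 and 1.93 (79.6) and 3.21 and 2.34 (80.2). Mki67, which encodes the proliferation marker Ki-67, was at 2.96 and 1.86 (76.5). The low end held Aurkb, the kinase of the chromosomal passenger complex, at 1.67 and 1.01 (53.3), the mitotic kinase Plk1 at 2.27 and 1.06 (60.9) and the kinesin Cenpe at 2.30 and 1.13 (62.7). The others, Aurka, Cdc20, Bub1 and Bub1b, lay between 79.2 and 90.4. Aurka (6.25 and 3.72), whose start is within 1 kb of that of Cstf1, was above Aurkb in each library.

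Upstream sequences of 4 mitotic genes are printed for their CCAAT boxes: Top2a (chr11:99024190-99024389), Ccnb1 (chr13:100786571-100786686), Ccnb2 (chr9:70421555-70421754) and Cdk1 (chr10:69352939-69353112), all on the minus strand, GRCm38.p6. Each starts at -200 and runs to the RefSeq start or, for Ccnb1 and Cdk1, to the last base before an annotated exon, at -85 and -27. Capitals again mark bases inside a footprint of each library.
Top2a: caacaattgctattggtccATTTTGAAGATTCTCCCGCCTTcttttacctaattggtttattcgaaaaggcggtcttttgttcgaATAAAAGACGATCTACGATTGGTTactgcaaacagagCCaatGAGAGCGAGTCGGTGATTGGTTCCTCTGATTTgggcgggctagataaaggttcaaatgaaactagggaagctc
Ccnb1: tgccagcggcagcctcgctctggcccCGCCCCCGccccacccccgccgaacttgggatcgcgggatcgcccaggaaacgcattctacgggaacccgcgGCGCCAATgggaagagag
Ccnb2: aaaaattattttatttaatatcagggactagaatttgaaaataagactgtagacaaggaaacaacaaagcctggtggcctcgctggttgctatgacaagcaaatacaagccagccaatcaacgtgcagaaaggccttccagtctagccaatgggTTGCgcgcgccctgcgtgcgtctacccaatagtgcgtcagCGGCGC
Cdk1: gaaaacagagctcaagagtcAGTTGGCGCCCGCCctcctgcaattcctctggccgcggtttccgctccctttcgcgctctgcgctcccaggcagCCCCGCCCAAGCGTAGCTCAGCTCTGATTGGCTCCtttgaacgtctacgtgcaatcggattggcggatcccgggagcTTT

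Top2a shows 6 CCAAT matches in its 300-base promoter, read here mostly as ATTGG on the opposite strand. Those at -98 to -94 and -58 to -54 are in capitals, as is a CHR core match, TTTGAA at -179 to -174. A further CHR core match of Top2a, read as TTCAAA at -23 to -18, lies outside the capitals. In Ccnb1 the capitals from -102 to -95 end with the CCAAT box at -99 to -95. In Cdk1 the capitals from -106 to -72 hold the inverted CCAAT box at -80 to -76, and the first base after them begins a CHR core match at -71 to -66. Another CHR core match of Cdk1, at -15 to -10, lies past the printed bases and not wholly inside a footprint of both libraries. Ccnb2 has 3 CCAAT boxes, at -87 to -83, -54 to -50 and -21 to -17, and none of them is in capitals.

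**Figure D2:**
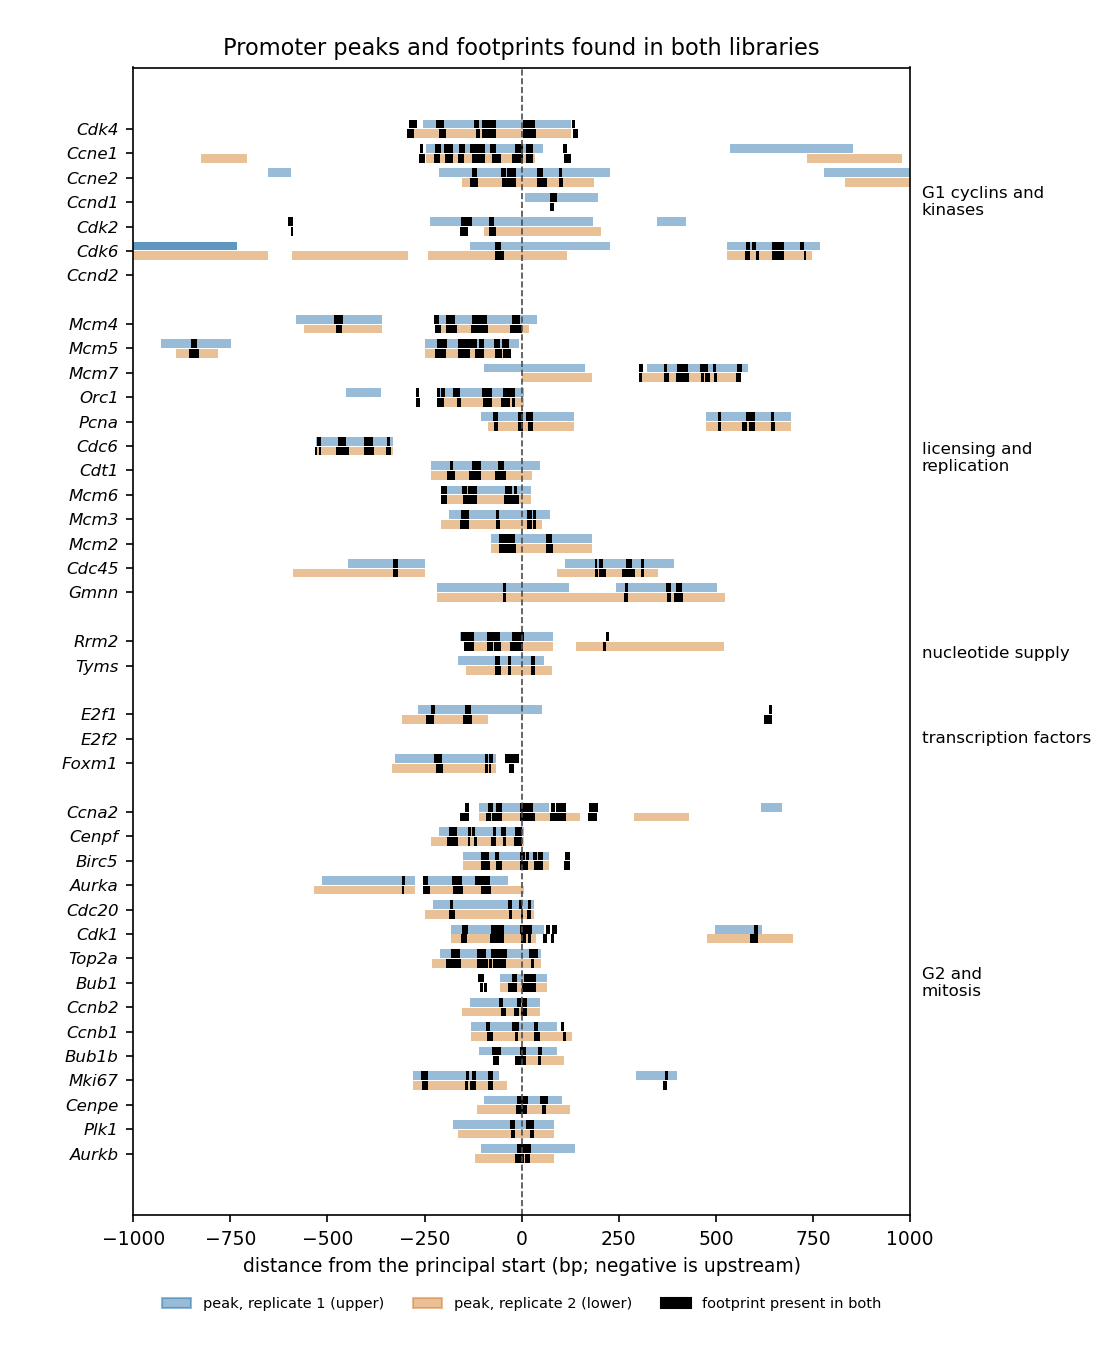
Main peaks of replicate 1 (blue, upper) and replicate 2 (orange, lower) and footprints present in both libraries (black) within 1000 bp of the principal start of each of the 39 genes. Ccnd2 and E2f2 have no peak in the window, and most other genes carry a peak at the start. The peaks of Cdc6 and Mcm7 with the most footprints stand to the side of the principal start.

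For most of these genes the open region was compact and sat at the start. The midpoint of the strongest peak lay within 250 bp of the principal start in both libraries for 31 of the 38, with a median of 46 bp upstream in replicate 1 (offset -46) and an offset of -40.5 bp in replicate 2. The other 7 were Ccnd1, Cdk6, Cdc6, Cdc45, Mcm7, E2f2 and Gmnn. With the principal start alone counted, a choice made after these positions were seen, 36 of the 39 were still open, against 51.4% of all genes, and Ccnd1, Ccnd2 and E2f2 were not. A single promoter peak was found for 22 genes in replicate 1 and 24 in replicate 2, and the promoter peaks had a median width of 240 bp in each library. Peak offsets, numbers of promoter peaks and widths were not counted over all genes, so they cannot be called particular to this list.

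A protein-coding neighbour at the promoter was about as common for these genes as over all genes. Other kinds of neighbouring gene were not counted. The start of another protein-coding gene lay within 1 kb for 7 of the 39 (17.9%), against 14.5% of all genes: Cdk2 with Pmel, Cdc45 with Ufd1, Mcm4 with Prkdc, Mcm7 with Ap4m1, Aurka with Cstf1, Foxm1 with Rhno1 and Orc1 with Prpf38a. The median mean percentile was 90.4 for these 7 and 86.7 for the other 31 that were open.

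All 39 genes had at least 1 promoter footprint found in both libraries, Ccnd2 included, where 56.9% of all protein-coding genes did. Among all open genes the share was 97.6%, so this count adds little to that of the peaks. The windows held 265 footprints in replicate 1 and 303 in replicate 2. Of those of replicate 1, 180 (67.9%) overlapped one of replicate 2, against 62.9% over all genes. The smaller footprint list of replicate 2 from the second run overlapped 127 of the 180 (70.6%). The larger list of that run was not compared in this way.

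Mcm7 had the most shared footprints, 13, at or beside the 2 of its 3 promoter peaks that lie inside the gene and none at the peak over its principal start, and Ccne1 followed with 9. Next came Ccna2, Cdk1, Pcna and Birc5 with 7 each. Ccnd2 and Aurkb had 1 each. The median was 4 over the 39 genes and 5 over all open genes. The strongly open Mcm4 and Mcm5 had 5 and 6, so the number of footprints did not follow the density gene by gene.

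Of the motifs searched, the CHR core was counted more often in the mitotic genes and the E2F forms more often in the replication genes, without a test of the difference. The letters searched, on both strands of the 300-base RefSeq promoters, were CCAAT, the CHR core TTTGAA, the E2F forms TTTCCCGC, TTTCGCGC, TTTGCCGC and TTTGGCGC, the GC box GGGCGG and the ETS form CCGGAA. An E2F form and its neighbour can overlap, as in Mcm5 and Mcm6. Background shares are given for all 16521 protein-coding genes with such a promoter and for the 9542 of them that were open. Open here again means a peak at any start of the gene, which need not be the promoter searched.

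CCAAT was found in 23 of the 31 promoters of the list (74.2%), against 38.6% of all promoters and 39.9% of the open ones. At least 2 matches were found in 15 of the 31 (48.4%), against 13.1% and 15.6%. The box was present in 12 of the 13 mitotic promoters, the exception being Birc5, and in 8 of the 10 replication promoters, but in 1 of the 4 G1 promoters (Cdk2). The CHR core was found in 9 of the 13 mitotic promoters and 2 of the 10 replication promoters, for 35.5% of the list against 15.5% of all and 10.9% of open promoters. Mki67, Top2a, Ccnb2, Cdk1, Cdc20, Aurka, Bub1b, Plk1 and Cenpf carried it, and among replication genes Cdc45 and Mcm2.

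E2F forms were found in 7 of the 10 replication promoters, Cdc6, Cdt1, Orc1, Mcm3, Mcm5, Mcm6 and Mcm7, and in 1 of the 13 mitotic promoters, Cdk1. Over the 31 promoters the share was 32.3%, against 2.95% of all and 4.36% of open promoters. The remaining matches were in Cdk2 and E2f2. The GC box was in 25 of the 31 (80.6%), against 48.4% and 67.1%, and the ETS form in 13 (41.9%), against 19.8% and 29.4%. These are counts of letters in a fixed window and show neither binding nor its absence.

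**Figure D3:**
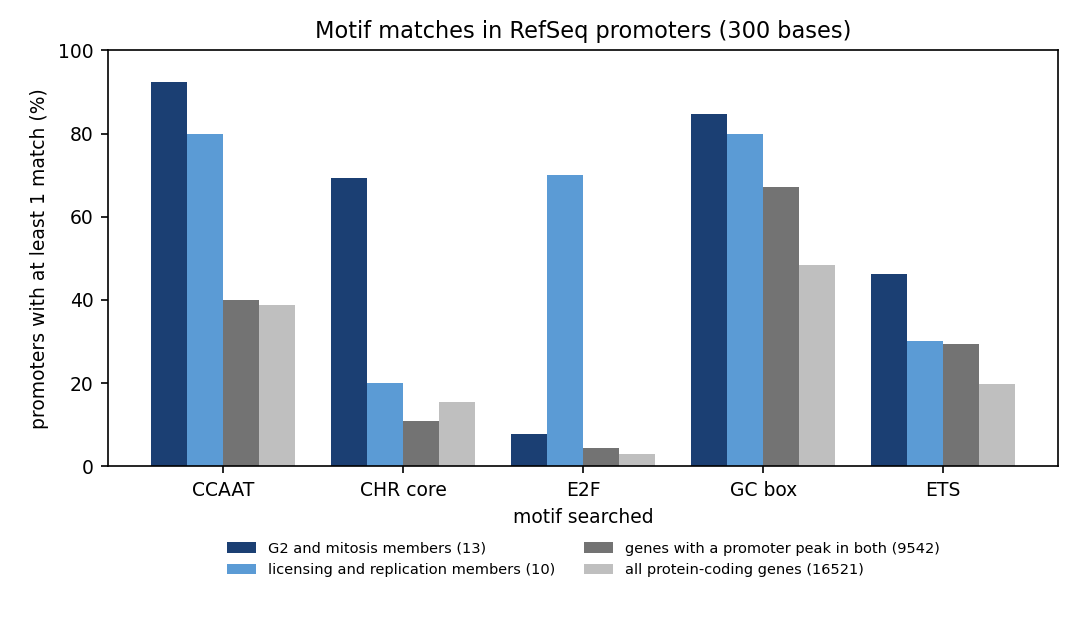
Share of RefSeq promoters with at least 1 match to each motif, for the 13 mitotic genes, the 10 replication genes, all open genes and all protein-coding genes. The CHR core stands out in the mitotic genes (69.2%) and the E2F forms in the replication genes (70%), while CCAAT is common in both.

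The share of matches that lay wholly inside a footprint of both libraries differed by motif. For CCAAT it was 5 of 48 (10.4%), close to the 8.95% of all matches in open promoters. For the E2F forms it was 4 of 15 (26.7%), against 13.4%, in Mcm5, Mcm6 and Mcm7. Overlapping matches were counted separately, here and in the background, and both matches of the overlapping pair of Mcm5 are among the 4. For the CHR core it was 1 of 16 (6.25%), in Top2a, against 1.95%. The GC box gave 21 of 51 (41.2%), against 34.0%, and the ETS form 1 of 14 (7.14%), in Tyms, against 11.0%.

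The distance between CCAAT boxes was looked at after their positions had been seen. In Ccnb1, Cdk1 and Aurka a pair of boxes stood 32 bp apart, counted from first base to first base, and in Ccnb2 both pairs stood 33 bp apart. A pair at 31 to 33 bp was thus present in 4 of the 9 mitotic promoters with at least 2 boxes (44.4%) and in 0 of the 6 replication promoters. Among all promoters with at least 2 boxes the share was 9.41%, and among open ones 12.1%. Top2a differed, with its last 3 boxes 20 bp apart.

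Away from their promoters these genes had little open DNA. Their spans held 65 shared peaks, counted as replicate 1 peaks that overlap one of replicate 2. Of these, 54 were at the gene's own starts, 4 at the start of another gene and 7 at no start. A peak at no annotated start was present for 5 of the 39 genes (12.8%), against 20.9% of all protein-coding genes. The genes were Ccnd1, Ccnd2, Cdc45, E2f2 and Aurkb. With the peaks at starts included, the median was 0.594 shared peaks per 10 kb of span, against 0.209 over all genes. Median spans were 23.9 and 27.4 kb. The same median was 0.378 over genes with a CpG-rich promoter and 0.729 over 10 housekeeping genes. It therefore reflects mostly the promoter peaks already counted. A single shared peak in the whole span was the commonest state, found for 22 of the 39. The median number of shared peaks in the span was 1, the same as over all protein-coding genes.

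After Cdk6, the most shared peaks were found at Aurkb, with 4, and at Mcm7, Pcna and Cdc45, with 3 each. At Aurkb the upstream peaks were stronger than the promoter itself. They lay with midpoints 9576, 4606 and 3846 bp before the principal start (chr11:69035961-69036180, chr11:69040921-69041160 and chr11:69041681-69041920), the first over an annotated exon and the others over none. Their densities were 4.42, 3.20 and 4.46 in replicate 1 and 2.33, 2.29 and 2.07 in replicate 2, against 1.67 and 1.01 at the Aurkb promoter. Which gene they serve was not tested. Of the 3 peaks of Pcna, 1 stood at the start of Cds2, and Cdc45 had a weak peak at no start in its gene body, 12947 bp from the principal start, at 1.30 and 1.13.

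**Figure D4:**
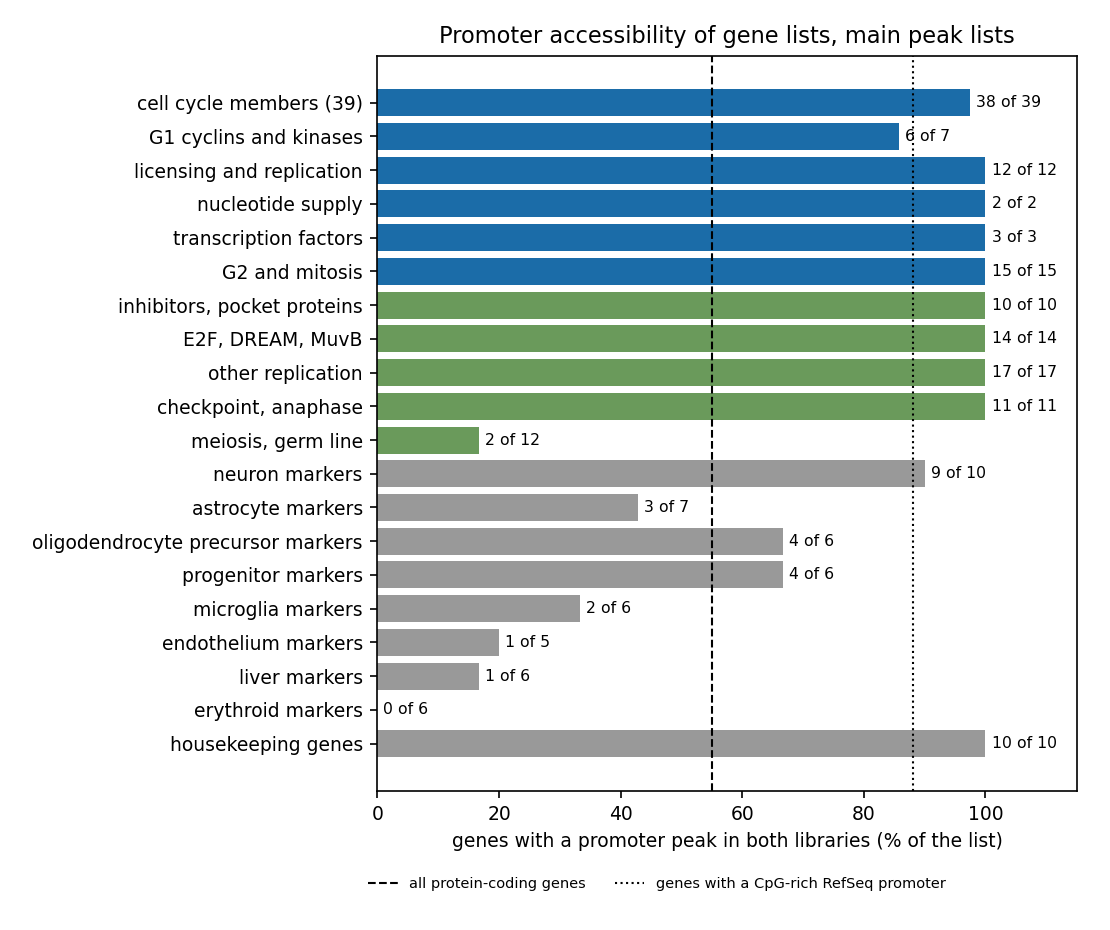
Share of open genes in every list, with counts beside the bars; blue marks the 39 genes and their roles, green other cell cycle lists and grey marker lists, and the vertical lines are all protein-coding genes (dashed, 55.1%) and genes with a CpG-rich promoter (dotted, 88.1%). The somatic cell cycle groups stand at 100% apart from the G1 genes, at 6 of 7, and the meiotic list is at 2 of 12.

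The other genes of the pathway were as widely open as the 39. All 52 genes of 4 further somatic lists were open: 10 inhibitors and pocket proteins, 14 genes of the E2F, DREAM and MuvB group, 17 further replication genes and 11 checkpoint and anaphase genes. Their median mean percentiles were 72.4, 82.7, 89.1 and 95.7, and that of 10 housekeeping genes was 95.6. Inhibitors and pocket proteins were thus open as widely as the genes that drive the cycle. Their median of 72.4 was under the 84.9 of all open genes. In bulk tissue, whether both are open in the same cells cannot be told. Among the inhibitors, Cdkn2d, which blocks Cdk4 and Cdk6, reached 19.5 in replicate 1 and 10.7 in replicate 2 (mean percentile 99.6), and Cdkn1b, p27, reached 4.12 and 2.77 (84.5). Cdkn2a, the INK4A and ARF locus, was lowest at 1.14 and 0.804 (35.4). The repressive pocket proteins Rb1 (2.16 and 1.11), Rbl1 (3.11 and 1.98) and Rbl2 (6.36 and 4.53) lay at 61.3, 77.9 and 91.8.

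Genes of meiosis and the germ line were mostly closed, where 55.1% of all protein-coding genes were open. Of 12 meiotic and germ line genes, 2 were open, Ccna1, the meiotic cyclin A, at 1.79 and 1.05, and the meiotic cohesin gene Smc1b at 1.94 and 1.31. Ccnb3, Sycp1, Sycp2, Sycp3, Dmc1, Spo11, Stra8, Rec8, Tex11 and Mael had no main promoter peak in either. Ccna1 can be set beside its somatic relative Ccna2, whose densities were 12.7 and 7.76.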

How the data were processed

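DNase-seq interval lists of 2 libraries of 1 group, made per library and placed on mm10 per the labels, were analysed; for the aligner and the callers, with their settings, the sources used here give nothing. Peak densities are a depth-normalised cleavage signal deposited by the authors. Hotspots carry a highest −log10 FDR, per the file headers. Each footprint line has 0.01 as its p-value, which the authors deposited as a cutoff, and the deposited per-base tracks hold an FDR under 0.05. Per the text lists deposited with the samples, the first run was made from filtered alignments and the second from reads.

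The main list is the smaller list of the first run, whose peaks all hold a base with FDR under 0.001. A promoter peak overlaps 1 kb around any start of the gene, a span is the gene body with 10 kb upstream, and peaks or footprints are shared at 1 bp of overlap. The principal start is that of the APPRIS principal transcript, the most upstream of several. Relative depth came from the step size of the densities, whole multiples of it within 0.05; absolute depth is not reported here. About 2.8% of main peaks overlap another of the same list (2.83% and 2.78%). How reads of the CAST allele mapped to the reference was not examined.

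RefSeq promoters (GRCm38.p6) matched 31 of the 39 genes. Aurkb, Ccna2, Ccnd1, Ccnd2, Ccne2, Foxm1, Gmnn and Mcm4 were not matched.

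Members, roles, lists and motifs were chosen with earlier results of these data known, so no test was run. Values were named for genes without a promoter peak in both libraries, the 3 highest and 3 lowest by percentile, the 5 with most shared peaks, the 3 with the largest library difference and the 3 with most shared footprints; others were named to fill out the roles, after their values were seen. Python 3.11.15, numpy 2.4.6, pandas 2.3.3 and matplotlib 3.10.9 were used, and overlap, percentile and motif steps were tested on simulated data. Alternatives covered the peak list and run, window, starts, overlap, list size, span and each library alone.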

Additional observations from a re-analysis of the deposited data

How the results depend on the processing

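The number of open genes among the 39 was 36 to 39 under every alternative run, and that with a shared promoter footprint 37 to 39. The median percentile, 87.5, depended on the length of the list: it was 85.0 with the stricter list, 92.9 with the looser one, and 90.04 and 92.05 with the smaller and larger lists of the second run, and over all genes it moved the same way (82.8, 90.5, 86.8 and 89.4). The median of 0.594 shared peaks per 10 kb was 0.643 with the looser list, 0.692 and 0.693 with the lists of the second run, 0.722 in the gene body alone, 0.353 with 50 kb on each side and 0.579 at 50% reciprocal overlap, and 0.629 to 0.643 with a single library, which counts all peaks and not shared ones. Over all genes it stayed lower in each of these, from 0.141 to 0.356. No paired analysis was possible because there is 1 group and no test. With 2 libraries, possibly from the same animals, no spread between animals can be given, and a gene such as Ccnd2 or Aurkb, near the threshold, changes state between lists.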
